A study of Mus musculus with 6 samples.

Results

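The genes described here are 10 transcription factor genes of connective tissue, namely Prrx1, Prrx2, Twist1, Twist2, Osr1, Osr2, Tbx2, Tbx3, Tbx5 and Tcf21. They were taken by symbol, and all 10 were found among the 23329 genes of the count tables. RNA was read from primary cultures of mesenchymal cells of the small intestine of C57 mice, 3 cultures from adult mice and 3 from embryos at embryonic day 14.5 (E14.5). Both groups lost their epithelium by chelation, were digested with collagenase and dispase, were grown in serum with the kinase inhibitor Y27632 and were used at passage 2 to 3. Beforehand the adult gut was opened and freed of its villi by scraping, and the embryonic gut was minced. The labels used here give no adult age, no sex and no number of animals behind a culture, so the p-values cover only the spread among these 6 cultures, part of which may be technical. The comparison asks how the genes differ between adult and embryonic mesenchyme, and all fold changes are adult over E14.5.

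All 10 genes encode proteins that bind DNA and switch other genes on or off in developing mesenchyme. Prrx1 and Prrx2 are paired-related homeobox factors, best known in the mesenchyme of limb and face, and Prrx1 is also widely used in mice as a marker of fibroblast lineages. Twist1, Twist2 and Tcf21 are basic helix-loop-helix (bHLH) factors, which bind DNA as dimers with the broadly made E proteins. Osr1 and Osr2 are zinc finger factors related to the fly gene odd-skipped, and Tbx2, Tbx3 and Tbx5 belong to the T-box family. Several of these genes work in overlapping pairs in the mouse embryo, so that the balance within a pair is of interest beside the level of each gene.

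The sequences just upstream of the RefSeq starts of the related genes Prrx1 and Prrx2, and Twist2 and Twist1, are shown because the members of each pair differed in how far apart the stages lay. Each is a run of 250 bases on GRCm38.p6, 5′ to 3′ on the gene's strand, and RefSeq sequences were matched for 5 of the 10 genes (these 4 and Tcf21). GENCODE M21, from which the gene bounds given further on are taken, has the same start for Twist1 and Twist2 but begins Prrx1 60 bases and Prrx2 10395 bases further upstream, so by those bounds the Prrx2 window lies inside the gene and the Prrx1 window reaches into it. The windows lie at chr1:163313651-163313900 on the minus strand for Prrx1, and on the plus strand at chr2:30845117-30845366 for Prrx2, at chr1:91801211-91801460 for Twist2 and at chr12:33957421-33957670 for Twist1. Capitals mark TAAT on either strand, the core that many homeodomain proteins, Prrx proteins included, recognise.
Prrx1: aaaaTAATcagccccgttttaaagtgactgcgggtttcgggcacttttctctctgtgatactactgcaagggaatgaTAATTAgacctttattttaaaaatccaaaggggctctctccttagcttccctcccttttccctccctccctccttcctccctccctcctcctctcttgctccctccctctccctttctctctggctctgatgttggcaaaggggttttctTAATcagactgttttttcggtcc
Prrx2: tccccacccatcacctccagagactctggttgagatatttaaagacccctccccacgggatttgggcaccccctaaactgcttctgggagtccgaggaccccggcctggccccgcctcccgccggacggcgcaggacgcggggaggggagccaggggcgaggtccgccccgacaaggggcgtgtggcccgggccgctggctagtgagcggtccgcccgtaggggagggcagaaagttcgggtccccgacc
Twist2: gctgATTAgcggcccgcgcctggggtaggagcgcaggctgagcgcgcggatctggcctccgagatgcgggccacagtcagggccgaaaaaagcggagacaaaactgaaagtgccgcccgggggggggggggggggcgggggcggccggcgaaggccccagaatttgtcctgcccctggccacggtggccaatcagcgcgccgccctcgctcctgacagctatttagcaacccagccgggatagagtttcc
Twist1: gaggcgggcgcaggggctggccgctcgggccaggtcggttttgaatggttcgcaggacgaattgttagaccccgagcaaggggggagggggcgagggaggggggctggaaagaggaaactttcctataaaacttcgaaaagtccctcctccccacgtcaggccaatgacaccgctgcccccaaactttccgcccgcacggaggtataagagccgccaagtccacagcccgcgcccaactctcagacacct
The Prrx1 window held 4 matches to TAAT, of which 2 overlap in TAATTA, the Twist2 window held 1, and the Prrx2, Twist1 and Tcf21 windows held 0. At least 1 match stood in 54.9% of 32851 upstream windows of this length, so its presence is common. CANNTG, the E-box that bHLH dimers bind, was found in 0 of the 5 windows and in 66.2% of all windows, and GGTGTGA, from the T-box site, in 0 of the 5 and in 3.33% of all. A match describes letters in the window and shows no binding.

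Gene totals per library ran from 18850224 counts, in adult replicate 2, to 32672370 counts, in E14.5 replicate 1. Levels are given as CPM, which are counts brought to 1 total for all libraries, after TMM scaling, a method that corrects for unequal composition. Fibroblast markers of a prepared list summed to 11341 to 18240 CPM in adult and 11398 to 21849 CPM in E14.5 cultures, and 8 of 9 were above 1 CPM, with Dpt at 0 to 0.105 CPM. Markers of other cell types were also detected, though sums over different gene lists do not rank cell types. The summed level of 6 smooth muscle markers, 18422 to 29616 CPM in adult and 24688 to 35826 CPM in E14.5 cultures, was above the fibroblast sum in every culture. The summed level of 7 endothelial markers was 27.6, 1839 and 389 CPM in the adult cultures (replicates 1, 2 and 3, as in all lists of 3 values) and between 10.7 and 36.0 CPM in the E14.5 cultures. That of 8 leukocyte markers was 20.0 to 147 CPM in adult cultures and 141, 301 and 1657 CPM in E14.5 cultures. That of 6 mesothelial markers was 514 to 1423 CPM in adult cultures and 158, 765 and 148 CPM in E14.5 cultures. All 8 leukocyte markers had a negative log2 fold change. For 7 of them the adult cultures all lay below the E14.5 cultures, as for 12.1% of all tested genes. Of the 7 endothelial markers, 6 had a positive and 1 a negative log2 fold change. For 5 of them the adult cultures all lay above, as for 12% of all tested genes. No leukocyte or endothelial marker passed edgeR's test. In bulk RNA, fewer cells of a type and less RNA per cell cannot be told apart.

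Of the 10 genes, 8 passed the filter on low counts and were tested with edgeR's quasi-likelihood test among 13478 genes. Prrx1 rose in adult cultures and no member fell at a Benjamini-Hochberg adjusted p of 0.05, which makes 1 of 8 where 1.08% of all tested genes passed, 0.838% as higher in adult. At an unadjusted p under 0.05 there were 5 of 8 members, against 17.9% of all tested genes. The 3 adult cultures all lay above the 3 E14.5 cultures for 4 members, Prrx1, Prrx2, Twist2 and Tcf21, and for no member all below. Over all genes the groups did not overlap for 24.1%, and for 12% with adult above. The log2 fold change was positive for 6 and negative for 2 members, with a median of 1.23, whereas the median over all genes was -0.01. This median covers the members that passed the filter, and the genes were chosen with earlier results of these data known.

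**Figure D1:**
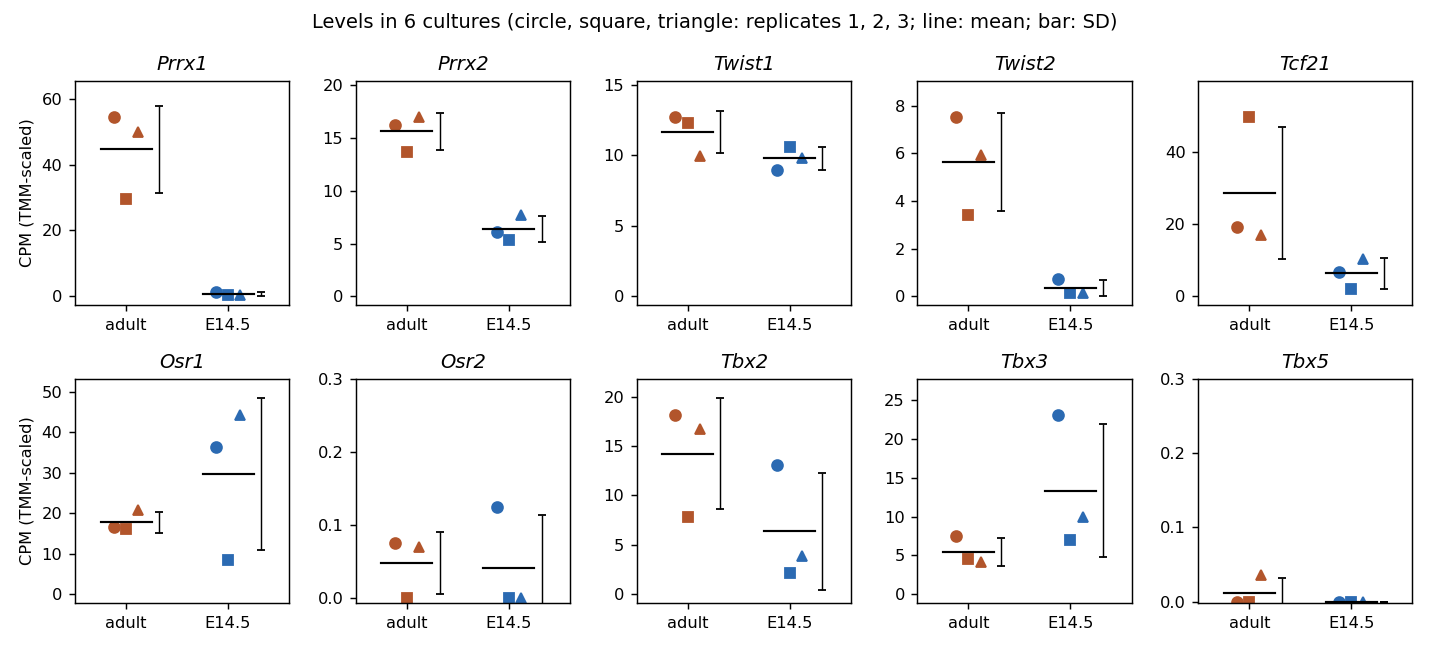
Levels of the 10 genes in CPM (vertical axes, each on its own scale) in adult cultures (left in each panel) and E14.5 cultures (right). Symbols are single cultures, lines are means and bars are SDs over 3 cultures, and Prrx1, Prrx2, Twist2 and Tcf21 are the panels in which the groups do not overlap in CPM and the levels pass the filter.

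Prrx1 showed the largest difference of the 8. The gene occupies chromosome 1 from 163245119 to 163313710 in mm10, on the minus strand. Its level was 54.5, 29.6 and 50.0 CPM in adult cultures, against 1.38, 0.31 and 0.53 CPM in E14.5 cultures. In reads these levels were 1440, 596 and 1422 counts in adult and 44, 10 and 17 counts in E14.5 cultures, so the gene was detected in every embryonic library but at few counts. The lowest adult culture was thus far above the highest embryonic one. This was a 60.4-fold difference (log2 fold change 5.92, SE 0.60, adjusted p = 0.022, edgeR) that ranked 29 of 13478 genes by p. Between cultures that share a title prefix, which the labels do not explain, the difference in log2 CPM was 5.24, 6.29 and 6.39. The call was lost when some single libraries were left out, and fewer genes of any kind then passed edgeR's test. Without adult replicate 1 the log2 fold change was 5.75 with adjusted p = 0.065 and unadjusted p = 2.5e-04 (edgeR), and 38 genes passed. Without adult replicate 3 it was 5.83 with adjusted p = 0.137 and unadjusted p = 3.0e-04, and 3 genes passed. Without E14.5 replicate 1 it was 6.74 with adjusted p = 0.056 and unadjusted p = 2.0e-05, and 3 genes passed. With all cultures the unadjusted p was 4.8e-05 and 146 genes passed.

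Another gene used to mark fibroblasts, Pdgfra, the gene for a receptor of platelet-derived growth factors, moved in the same direction. It was named after its values were seen, as the 1 of 8 tested fibroblast markers past the test. Of the 8, 6 had a positive and 2 a negative log2 fold change, the negative ones being those of Col1a1 (-0.85, adjusted p = 0.271, edgeR) and Dcn (-0.50, adjusted p = 0.775). Its level was 29.5, 81.0 and 31.7 CPM in adult cultures, against 2.5, 3.8 and 4.4 CPM in E14.5 cultures. This gave a log2 fold change of 3.72 (SE 0.50, adjusted p = 0.036, edgeR). Adjusted p ranged from 0.068 to 0.141 when adult replicate 1, adult replicate 3, E14.5 replicate 1 or E14.5 replicate 3 was left out, and limma-voom gave 0.081. Within the adult group the highest culture for Pdgfra, replicate 2, was the lowest for Prrx1. The part of the cell makeup in the difference of Prrx1 was not tested.

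Prrx2, the close relative of Prrx1, lies on chromosome 2 from 30834972 to 30881251 on the plus strand. It measured 16.2, 13.7 and 17.0 CPM in adult cultures, against 6.10, 5.34 and 7.72 CPM in E14.5 cultures. The groups did not overlap, and the cultures within each group lay close together. With a log2 fold change of 1.29 (SE 0.21), its adjusted p of 0.056 by edgeR missed the threshold. Limma-voom gave adjusted p = 0.049 and DESeq2 adjusted p = 2.1e-06. DESeq2 passed 4 of the 8 members, Prrx1, Prrx2, Twist2 and Tcf21, where it passed 10.6% of all genes, and limma-voom passed Prrx1 and Prrx2, where it passed 1.02%.

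The balance between the Prrx genes in counts was opposite in the stages. Prrx1 had more counts than Prrx2 in every adult culture, with 429, 275 and 484 counts for Prrx2, and fewer in every E14.5 culture, with 195, 172 and 250 counts for Prrx2. Counts also scale with transcript length. Per kb of the longest transcript linked to RefSeq, of 6527 bases for Prrx1 and 1441 bases for Prrx2, Prrx2 was the higher gene in both stages. Prrx1 has 3 transcripts linked to RefSeq, and the order with the others was not tested. Prrx1 had 8.35, 4.53 and 7.66 CPM per kb and Prrx2 11.3, 9.48 and 11.8 CPM per kb in adult cultures, against 0.21, 0.048 and 0.080 CPM per kb for Prrx1 and 4.23, 3.70 and 5.36 CPM per kb for Prrx2 in E14.5 cultures. A fixed length cancels in the change of the balance between stages, and whether the stages use the same isoforms was not tested. The difference in log2 CPM, Prrx1 minus Prrx2, was 1.47 ± 0.32 in adult and -3.21 ± 0.97 in E14.5 cultures (SD, n = 3 each). The balance therefore differed by 4.68 on the log2 scale (exact two-sided permutation test, p = 0.1, adjusted p = 0.133 over 4 pairs of genes, of which Osr1 and Osr2 give no usable balance). With 3 cultures against 3 this test cannot give a p below 0.1.

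Twist2, known for its role in the dermis of mice, lies on chromosome 1 from 91801461 to 91848028 on the plus strand. It measured 7.53, 3.43 and 5.94 CPM in adult cultures, against 0.72, 0.16 and 0.15 CPM in E14.5 cultures. The embryonic values rest on 23, 5 and 5 counts, so those of replicates 2 and 3 are imprecise. The groups did not overlap. Its log2 fold change was 4.02 (SE 0.74), which is 16.3-fold, and the adjusted p of 0.073 by edgeR missed the threshold, while DESeq2 gave adjusted p = 1.6e-06. Leaving out E14.5 replicate 1 gave a log2 fold change of 5.15 with adjusted p = 0.097 (edgeR). As with Prrx1, adult replicate 2 was the lowest adult culture and E14.5 replicate 1 the highest embryonic one.

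Twist1, which is needed for the neural tube and the head mesenchyme in mouse embryos and is also known from epithelial-mesenchymal transition, was at similar levels in all 6 cultures. It lies on chromosome 12 from 33957671 to 33959829 on the plus strand. Its level was 12.7, 12.3 and 9.95 CPM in adult cultures and 8.94, 10.6 and 9.79 CPM in E14.5 cultures, and the groups overlapped. Its log2 fold change of 0.25 (SE 0.18, adjusted p = 0.558, edgeR) was within the spread between cultures. Twist1 thus had more counts than Twist2 in every culture, but by less in the adult ones. The difference in log2 CPM, Twist1 minus Twist2, was 1.10 ± 0.62 in adult and 4.85 ± 1.16 in E14.5 cultures (SD, n = 3 each), a change of -3.74 (exact two-sided permutation test, p = 0.1, adjusted p = 0.133).

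Tcf21, a bHLH factor of the mesenchyme of kidney, lung and epicardium in mice, lies on chromosome 10 from 22817281 to 22820174 on the minus strand. It measured 19.1, 49.8 and 17.0 CPM in adult cultures, against 6.69, 1.89 and 10.4 CPM in E14.5 cultures. The groups did not overlap, but adult replicate 2 stood well above the other adult cultures and E14.5 replicate 2 well below the other embryonic ones. EdgeR gave a log2 fold change of 2.17 (SE 0.71, adjusted p = 0.184), and DESeq2 gave adjusted p = 0.012. Without adult replicate 2, the culture with the highest endothelial marker sum of 1839 CPM, the log2 fold change by edgeR was 1.51 (adjusted p = 0.381). The part of these markers in the level of Tcf21 was not tested.

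**Figure D2:**
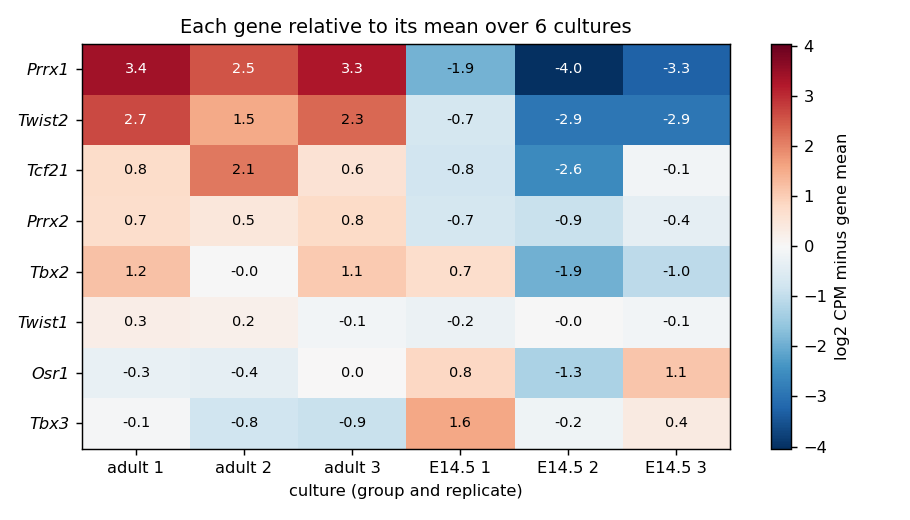
Each of the 8 tested genes (rows) in each culture (columns, adult left of E14.5), as log2 CPM minus the gene's mean over the 6 cultures (colour and printed value). Prrx1 and Twist2 are above their mean in every adult culture and below it in every E14.5 culture, while Osr1 has both its highest and its lowest value in E14.5 cultures and Tbx3 overlaps between the stages.

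Osr1, which acts in the intermediate and lateral plate mesoderm of mouse embryos, had a higher mean in the embryonic cultures, and the groups overlapped. The gene lies on chromosome 12 from 9570116 to 9581500 on the plus strand. It measured 16.5, 16.1 and 20.8 CPM in adult cultures, against 36.4, 8.41 and 44.4 CPM in E14.5 cultures. E14.5 replicate 2 lay below all adult cultures and the other embryonic cultures lay above them. A log2 fold change of -0.74 (SE 0.56, adjusted p = 0.577, edgeR) therefore did not pass the test. Leaving out E14.5 replicate 2 gave -1.18 with adjusted p = 0.033 (edgeR), where 3.42% of all tested genes passed. Leaving out E14.5 replicate 3 gave -0.33 with adjusted p = 0.802 (edgeR). The mesothelial marker sum was 765 CPM in E14.5 replicate 2 and 158 and 148 CPM in the other E14.5 cultures, and their part in the low value was not tested.

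Its relative Osr2, known from the developing palate in mice, was close to undetected. The gene, on chromosome 15 from 35296098 to 35303305, had 2, 0 and 2 counts in adult and 4, 0 and 0 counts in E14.5 cultures. A count of 0 allows up to 3 counts, which is 0.093 to 0.149 CPM in these libraries and covers counting error only. With so few counts of Osr2, the difference in log2 CPM between Osr1 and Osr2 is set by the prior count that is added, so no balance is given for this pair.

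Tbx2 and Tbx3 encode related T-box factors that act mainly as repressors, and their mean levels lay in opposite directions. Tbx2, on chromosome 11 from 85832551 to 85841948, measured 18.2, 7.80 and 16.7 CPM in adult cultures, against 13.1, 2.08 and 3.83 CPM in E14.5 cultures. The groups overlapped, since E14.5 replicate 1 lay above adult replicate 2. This gave a log2 fold change of 1.17 (SE 0.71, adjusted p = 0.478, edgeR). Leaving out E14.5 replicate 1 gave 2.28 and leaving out E14.5 replicate 2 gave 0.75, neither past the test.

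Tbx3, on chromosome 5 from 119670669 to 119684724, is known from limb, mammary gland and heart. It measured 7.50, 4.47 and 4.18 CPM in adult cultures, against 23.2, 6.92 and 9.98 CPM in E14.5 cultures. The groups overlapped only in that adult replicate 1 lay above E14.5 replicate 2, and E14.5 replicate 1 was the highest culture. All 6 cultures gave a log2 fold change of -1.31 (SE 0.51, adjusted p = 0.253, edgeR), and leaving out E14.5 replicate 1 gave -0.64.

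Within cultures the order of Tbx2 and Tbx3 was fully separated by stage. Tbx2 had 480, 157 and 474 counts in adult cultures, where Tbx3 had 198, 90 and 119, and Tbx2 had 419, 67 and 124 counts in E14.5 cultures, where Tbx3 had 741, 223 and 323. Tbx2 thus had more counts than Tbx3 in each adult culture and fewer in each E14.5 culture. The difference in log2 CPM, Tbx2 minus Tbx3, was 1.35 ± 0.60 in adult and -1.30 ± 0.45 in E14.5 cultures (SD, n = 3 each). The balance differed by 2.64 (exact two-sided permutation test, p = 0.1, adjusted p = 0.133), which is the smallest p that 3 cultures against 3 allow, and neither gene passed edgeR's test. The order also held per kb of the longest transcript linked to RefSeq. The summed level of 7 markers of pericytes and interstitial cells of Cajal was 78.6, 108 and 95.9 CPM in adult cultures and 303, 31.6 and 113 CPM in E14.5 cultures. In E14.5 cultures the sum had the same order over replicates as Tbx2 and Tbx3, with 240, 15.7 and 72.9 CPM of it from Rgs5 alone. In adult cultures the sum was lowest in replicate 1, where Tbx2 and Tbx3 were highest. The part of pericytes and interstitial cells of Cajal in either gene was not tested.

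Tbx5, a T-box activator needed for the forelimb and heart of mice, was effectively undetected. The gene, on chromosome 5 from 119832668 to 119885219, had 0, 0 and 1 counts in adult cultures and 0 counts in each E14.5 culture. Tbx3, on the same chromosome, was thus measured in all 6 cultures, whereas Tbx5 was not detectable at this depth in 5 of them.

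**Figure D3:**
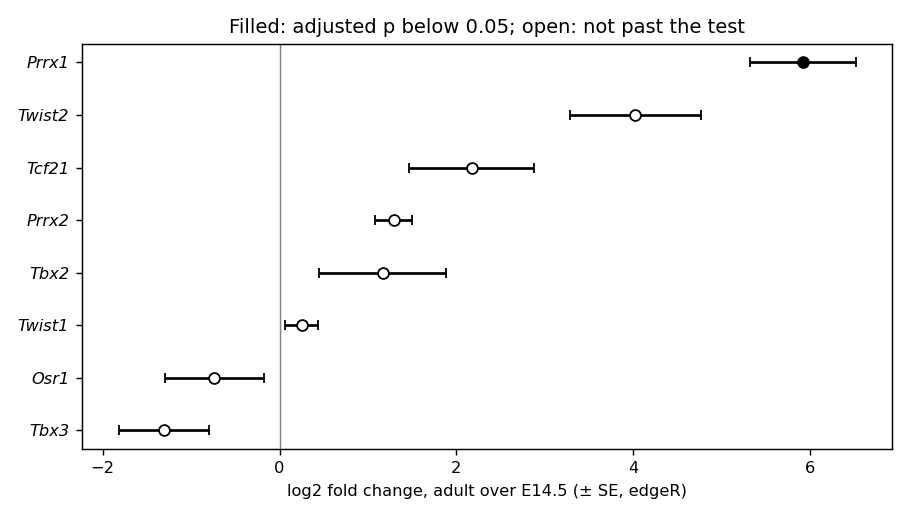
Log2 fold change of each tested gene, adult over E14.5 (horizontal axis), with its SE as a bar, from edgeR. The value for Prrx1, 5.92, is filled because its adjusted p is below 0.05, and open symbols did not pass.

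**Figure D4:**
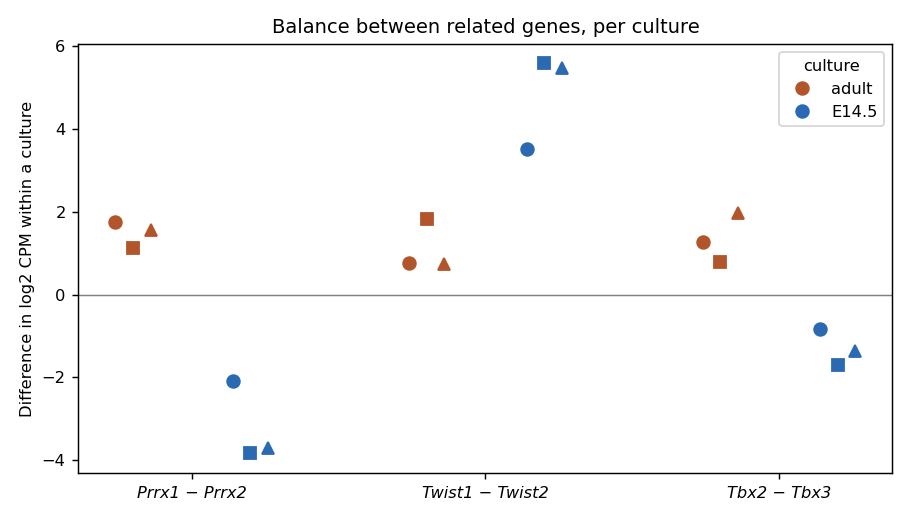
Difference in log2 CPM between related genes within each culture (vertical axis), for 3 pairs, with adult cultures left of E14.5 cultures and circle, square and triangle for replicates 1, 2 and 3. The groups separate for Prrx1 minus Prrx2, Twist1 minus Twist2 and Tbx2 minus Tbx3.

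The order of the 10 genes was compared as CPM per kb of the longest GENCODE M21 transcript linked to RefSeq. In adult cultures the highest was Tcf21 at 22.6 ± 14.5 CPM per kb, followed by Prrx2 at 10.9 ± 1.22, Osr1 at 8.85 ± 1.28, Twist1 at 7.15 ± 0.91 and Prrx1 at 6.85 ± 2.03 CPM per kb (SD, n = 3). Twist2 at 4.24 ± 1.56 and Tbx2 at 3.92 ± 1.55 CPM per kb came next, then Tbx3 at 1.11 ± 0.38 CPM per kb. Among neighbours in this order, Tcf21 and Prrx2, Osr1 and Twist1, Tbx2 and Tbx3, and Tbx3 and Osr2 did not overlap between cultures, and the other neighbours overlapped. In E14.5 cultures Osr1 led with 14.8 ± 9.40 CPM per kb, followed by Twist1 at 6.01 ± 0.51, Tcf21 at 5.00 ± 3.37, Prrx2 at 4.43 ± 0.85, Tbx3 at 2.75 ± 1.78 and Tbx2 at 1.75 ± 1.63 CPM per kb. Twist2 at 0.26 ± 0.25 and Prrx1 at 0.11 ± 0.086 CPM per kb came far below, and only Tbx2 and Twist2 were neighbours without overlap. With the union of all annotated exons as the length, an alternative chosen after the data were seen, Prrx1 in adult cultures was 4.04 CPM per kb, Tcf21 12.2 CPM per kb and Twist2 1.78 CPM per kb. By that length some neighbours changed places. In adult cultures Osr1 (8.62 CPM per kb) was above Prrx2 (7.97), and Tbx2 (3.92) above Twist2. In E14.5 cultures Prrx2 (3.26 CPM per kb) was above Tcf21 (2.70). Levels per length, and the order of overlapping neighbours, thus depend on the gene model.

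Variation between cultures of a stage was above the median of all tested genes for 6 of the 8 tested members in each stage, and below it in both stages for Prrx2 and Twist1. The median coefficient of variation of CPM over the 8 tested members was 0.319 in adult and 0.661 in E14.5 cultures, against 0.135 in adult and 0.207 in E14.5 cultures over all tested genes. The comparison was not matched for level, and low counts add counting error. The median level over all tested genes was 21.5 CPM in adult and 21.1 CPM in E14.5 cultures, and most members lay below it. Among the E14.5 cultures, replicate 2 was the lowest for 6 of the 8 members, the exceptions being Twist1 and Twist2, where over all genes it was the lowest for 38.6%. The highest E14.5 value was 6.30 times the lowest for Tbx2, 5.50 times for Tcf21, 5.28 times for Osr1 and 1.19 times for Twist1. The fibroblast marker sum was also lowest in replicate 2 of each stage, at 11341 CPM in the adult and 11398 CPM in the E14.5 culture. Single markers of the sum differed in this. Col1a2 and Lum were lowest in replicate 2 of each stage. Pdgfra was highest of the adult cultures in replicate 2 (81.0 CPM), and Vim highest of the E14.5 cultures in replicate 2 (3698 CPM). The part of the fibroblast markers in the low values of the members was not tested. Among the adult cultures, replicate 2 was the lowest for 5 of the 8 and replicate 3 for 3. The share over all genes was not taken for the adult cultures, so whether this count is particular to the members was not tested.

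Among genes related to the members, the T-box gene Tbx15, known from the dermis and skeleton of mice, rose in adult cultures. It was the 1 gene past edgeR's test of 3 tested and 14 listed, where 1.08% of all tested genes passed, 0.838% as higher in adult. Tbx15 measured 6.70, 9.19 and 7.03 CPM in adult cultures, against 0.50, 1.43 and 0.59 CPM in E14.5 cultures. It had a log2 fold change of 3.18 (SE 0.49, adjusted p = 0.046, edgeR). Adjusted p was 0.054 with library sizes alone and ranged from 0.088 to 0.199 when E14.5 replicate 1, E14.5 replicate 3 or any 1 adult replicate was left out. The median log2 fold change of the 3 tested T-box genes was 0.07, against -0.01 over all genes. Tbx18 and Mga each had a log2 fold change of 0.07 (adjusted p = 0.968 for Tbx18 and 0.865 for Mga, edgeR).

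The tissue-restricted bHLH relatives of Twist and Tcf21 had 0 of 5 tested members past edgeR's test (13 listed), which 1.08% of all tested genes passed. At an unadjusted p under 0.05 there were 2 (17.9% of all tested genes). The median log2 fold change was -0.51, against -0.01 over all genes. DESeq2 passed 1 of the 5, Hand1 (10.6% of all genes), and limma-voom 0 (1.02% of all genes). Hand2, a factor of gut and heart mesenchyme, measured 50.9 ± 10.2 CPM in adult and 72.3 ± 3.62 CPM in E14.5 cultures (SD, n = 3 each; log2 fold change -0.51, adjusted p = 0.187, edgeR). Hand1 measured 14.8 ± 6.81 CPM in adult and 45.8 ± 17.9 CPM in E14.5 cultures (log2 fold change -1.63, adjusted p = 0.134, edgeR), for which DESeq2 gave adjusted p = 0.0043. In both genes all adult cultures lay below all E14.5 cultures, as for 12.1% of all tested genes. Tal1, a factor of blood and endothelial cells, measured 0.26, 45.3 and 7.49 CPM in adult cultures and 0.44, 0.53 and 5.28 CPM in E14.5 cultures. In adult cultures this was the order of the endothelial marker sums and the reverse of the leukocyte sums, 147, 20.0 and 42.1 CPM. In E14.5 cultures it was the reverse of the endothelial sums, 36.0, 15.7 and 10.7 CPM, and the order of the leukocyte sums, 141, 301 and 1657 CPM. Of these endothelial sums, 22.5, 0.53 and 0.22 CPM came from Emcn alone. Pecam1, at 0.44, 0.71 and 0.46 CPM in E14.5 cultures, had another order. The part of either cell type in the level of Tal1 was not tested. The levels of Tal1 overlapped between the groups.

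Twist and Tcf21 pair with E proteins, and Id proteins block such pairs because they lack a DNA-binding region. The genes of these E and Id proteins had 0 of 7 members past edgeR's test, which 1.08% of all tested genes passed. At an unadjusted p under 0.05 there were 2 (17.9% of all tested genes). The median log2 fold change was 0.51, against -0.01 over all genes. DESeq2 passed 2 of the 7, Id1 and Id3 (10.6% of all genes), and limma-voom 0 (1.02% of all genes). Id3 measured 199 ± 21.7 CPM in adult and 98.3 ± 26.6 CPM in E14.5 cultures (SD, n = 3 each; log2 fold change 1.02, adjusted p = 0.101, edgeR). Id1 measured 101 ± 20.3 CPM in adult and 50.9 ± 9.08 CPM in E14.5 cultures (log2 fold change 0.99, adjusted p = 0.085, edgeR). The groups did not overlap in either gene, with adult above, as for 12% of all tested genes. DESeq2 gave adjusted p = 0.0014 for Id3 and 8.8e-04 for Id1. Without E14.5 replicate 2, edgeR passed both, with adjusted p = 0.045 for Id3 and 0.048 for Id1. That setting passed 3.42% of all tested genes, against 1.08% with all cultures. With any other single library left out, adjusted p was 0.132 to 0.289 for Id3 and 0.138 to 0.246 for Id1 (edgeR). The E protein gene Tcf12 measured 94.2 ± 4.89 CPM in adult and 80.4 ± 13.8 CPM in E14.5 cultures (adjusted p = 0.501, edgeR).

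The Snail and Zeb genes, which share a role in epithelial-mesenchymal transition with Twist1, had 0 of 4 tested members past edgeR's test (1.08% of all tested genes). At an unadjusted p under 0.05 there was 1 (17.9% of all tested genes). The median log2 fold change was 0.38, against -0.01 over all genes. DESeq2 passed 1 of the 4 (10.6% of all genes) and limma-voom 0 (1.02% of all genes). The gene, Snai1 in both cases, a zinc finger repressor, measured 49.9, 24.2 and 44.8 CPM in adult cultures, against 16.7, 15.2 and 11.7 CPM in E14.5 cultures. The groups did not overlap, with adult above, as for 12% of all tested genes (log2 fold change 1.45, SE 0.30, adjusted p = 0.094, edgeR). DESeq2 passed Snai1 with adjusted p = 5.1e-04. Zeb1 measured 122 ± 8.17 CPM in adult and 96.3 ± 25.5 CPM in E14.5 cultures, and Zeb2 96.5 ± 4.94 CPM in adult and 74.8 ± 25.4 CPM in E14.5 cultures (SD, n = 3 each). Zeb2 passed edgeR's test without E14.5 replicate 2 (adjusted p = 0.039), against 0.497 with all cultures. That setting passed 3.42% of all tested genes, against 1.08% with all cultures. With any other single library left out, adjusted p for Zeb2 was 0.654 to 0.798 (edgeR).

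Genes named as targets of these factors in other tissues had 0 of 10 members past edgeR's test, which 1.08% of all tested genes passed. At an unadjusted p under 0.05 there was 1 of the 10, where 17.9% of all tested genes lay. A list of 10 genes is too small to set these shares apart. The median log2 fold change was -0.46, against -0.01 over all genes. DESeq2 and limma-voom also passed 0 of the 10, where they passed 10.6% and 1.02% of all genes. The gene at an unadjusted p under 0.05, Cdkn1a, which encodes a cell cycle inhibitor repressed by Tbx2 and Tbx3 in other cells, measured 781 ± 211 CPM in adult and 1197 ± 241 CPM in E14.5 cultures (SD, n = 3 each; log2 fold change -0.62, adjusted p = 0.278, edgeR). The groups overlapped. Tnc, the tenascin C gene and a target of Prrx1 in mouse cells, measured 2222, 2266 and 1994 CPM in adult cultures, against 4592, 1475 and 3271 CPM in E14.5 cultures. E14.5 replicate 2 lay below all adult cultures and the other embryonic cultures above them (log2 fold change -0.53, adjusted p = 0.571, edgeR). Postn, the periostin gene, measured 1426, 843 and 1408 CPM in adult cultures and 1126, 90.9 and 1181 CPM in E14.5 cultures, with E14.5 replicate 2 again the lowest.

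**Figure D5:**
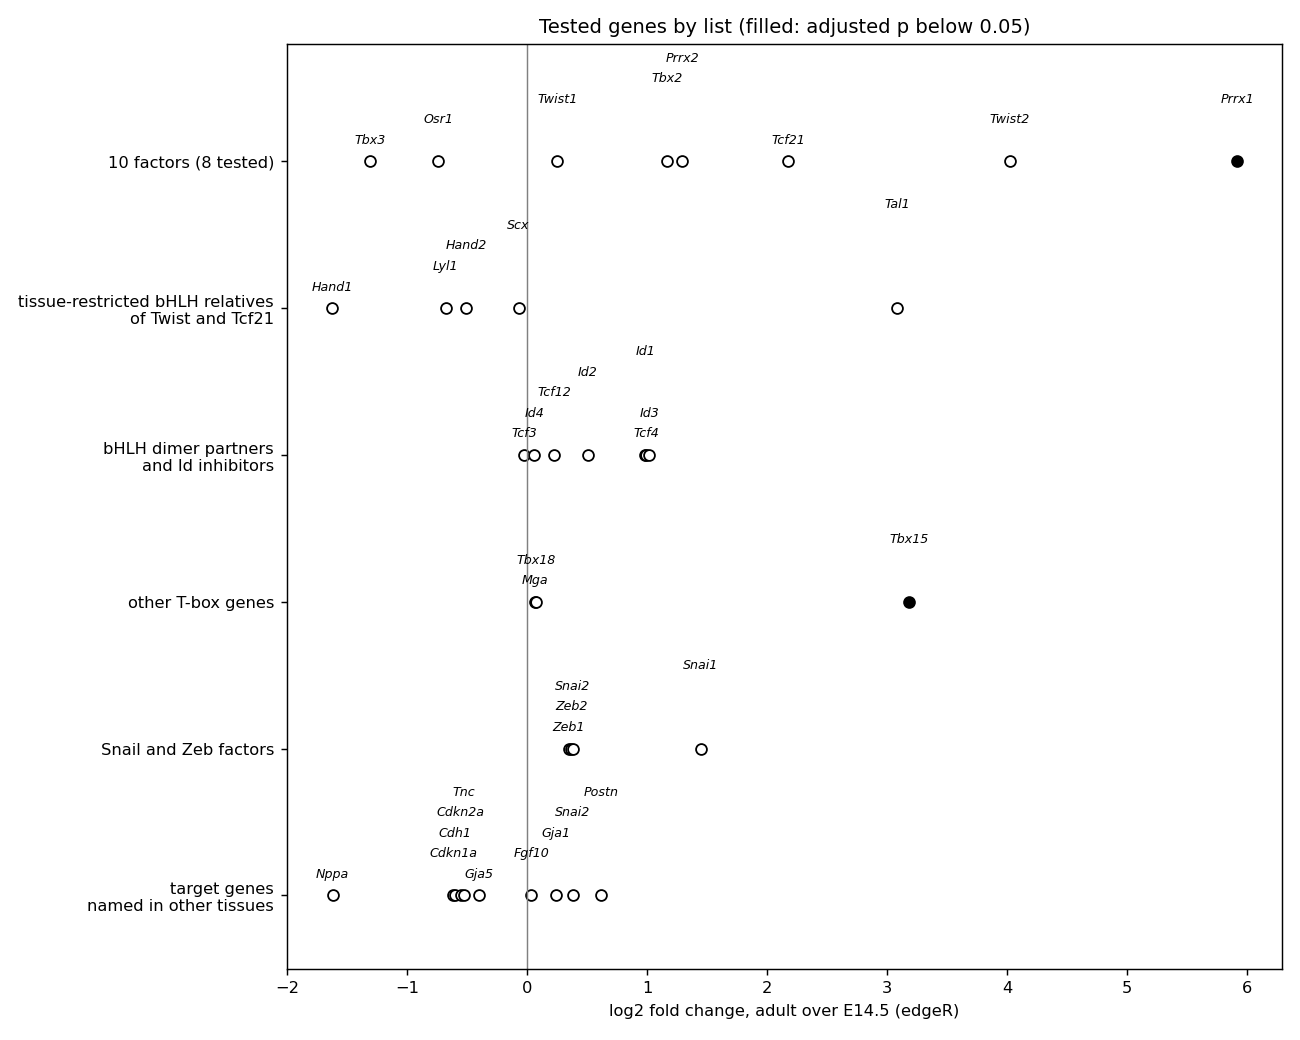
Log2 fold change, adult over E14.5 (horizontal axis), of every tested gene of the 10 factors and of 5 lists of related genes (rows), from edgeR. Filled symbols, Prrx1 and Tbx15, both on the adult side, passed an adjusted p of 0.05.

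The 5 named genes whose pattern over the 6 cultures was most like that of Prrx1 were Acadsb, Entpd5, Efemp2, St3gal2 and Ppp1cb, with Pearson's r of log2 CPM between 0.990 and 0.999 among 8525 other genes of at least 10 CPM. The points fall into the 2 stages, so r mainly restates that the groups are apart. Their log2 fold changes, 0.32 to 0.51, were far smaller than that of Prrx1, and none passed edgeR's test, with adjusted p from 0.097 to 0.176.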

How the data were processed

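Whole-number read counts per gene were deposited by the authors, 1 table per library, without normalization. Reads were aligned with STAR to mm10, per the submitters' processing notes. No source used here gives the STAR version or the gene annotation. Libraries were stranded poly(A) libraries read over 75 bases from a single end, per the labels' protocols. All 6 tables carry PBS in their submitted names, with no explanation in the labels. The reverse-strand column was used, since forward-strand counts made up 1.33% to 1.69% of stranded gene counts. Unmapped, multimapping, unassigned and ambiguous reads, 17.4% to 19.8% per library, were left out. Multimapping reads are thus missing from gene rows.

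Groups came from the stage label, and replicates were numbered in accession order. Genes kept by filterByExpr (13478) were scaled by TMM and tested with edgeR 4.0.16 in R 4.3.3 (quasi-likelihood, robust, Benjamini-Hochberg adjustment over all tested genes, threshold 0.05). The SE is the log2 fold change divided by the square root of F, which is approximate. Balances within pairs of genes used log2 CPM (prior count 2) and exact permutation tests in scipy 1.17.1. Alternatives included DESeq2 1.42.0, limma-voom in limma 3.58.1, other scaling and filters, the unstranded column, a block on the title prefix and each library left out. The steps were tested on simulated data. The members and lists were chosen with earlier results of these data known. From each list the text names the genes past the test, or else the 3 of highest mean CPM. The list of paired-type homeobox relatives is not reported here. Gene positions and lengths come from GENCODE M21 (GRCm38).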

Additional observations from a re-analysis of the deposited data

How the results depend on the processing

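The direction of all 8 tested members held in the 15 alternatives run for each (120 fits in all), and their side of the threshold held in 110, with 5 calls lost, all of Prrx1, and 5 gained. The log2 fold change of Prrx1 lay between 5.55 and 6.74, with adjusted p of 0.074 with the title prefix as a replicate block and 0.075 without adult replicate 2 and E14.5 replicate 3 together. The number of members past the test was 1, and it was 4 with DESeq2, 2 with limma-voom, 0 with the replicate block, 0 without adult replicate 2 and E14.5 replicate 3 together, and 0 to 2 without any 1 library. The number of all genes past the test was 146. It was 1427 with DESeq2, 2 with the replicate block, 36 without that pair of libraries and 3 to 471 without any 1 library. Leaving out adult replicate 3 or E14.5 replicate 1 gave 3, adult replicate 1 gave 38, adult replicate 2 gave 46 and E14.5 replicate 2 gave 471. Deviations from the group means correlated at -0.141, -0.229 and -0.0875 between cultures with the same prefix, so the prefix was not used as a pairing. The balance of Osr1 and Osr2, which rests on the prior count since Osr2 had at most 4 counts, was -0.63 with all cultures and ran from -1.13 to 0.067 when 1 library was left out, the positive value being that without E14.5 replicate 3. The other 3 balances kept their direction, from 4.37 to 5.24 for Prrx1 minus Prrx2, -4.41 to -3.38 for Twist1 minus Twist2 and 2.33 to 2.92 for Tbx2 minus Tbx3. With 2 cultures against 3, that test cannot give a p below 0.2. The causes of these shifts were not tested. Depth limits Osr2, Tbx5 and the E14.5 values of Prrx1 and Twist2.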
